A study of Mus musculus with 2 samples.

Results

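Fibro-adipogenic progenitor nuclei were picked from single-nucleus RNA profiles of mouse quadriceps muscle by their own transcripts. A nucleus was taken when it held at least 3 summed UMIs (unique molecular identifiers, each counted as 1 captured transcript) over Pdgfra, Dcn, Col1a1, Col1a2, Col3a1, Lum, Dpt, Mfap5, Fbn1 and Abca8a, from at least 2 of these 10 genes. That sum also had to exceed the sum over 8 genes of other cells, the macrophage genes Mrc1 and F13a1, the endothelial genes Pecam1 and Cdh5 and the adipocyte genes Adipoq, Plin1, Pparg and Acvr1c. Of 18040 nuclei with at least 200 genes, 561 met the rule, 446 of 7766 in the Cavin1 knockout library and 115 of 10274 in the WT library.

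The study compared C57BL/6N mice aged 3 months that lacked Cavin1, called PTRF in the labels after its older symbol, with WT mice of the same strain and age. Each genotype gave 1 library, made with a droplet 3′ kit from nuclei of homogenised muscle. The labels do not state how many mice were used, their sex, whether animals were pooled, how the allele was made or which part of the gene it removes. With 1 library per genotype there is no replicate and no test between genotypes: the intervals printed are exact 95% intervals for counting error only, and genotype cannot be told apart from library or animal.

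Fibro-adipogenic progenitors are the Pdgfra-expressing mesenchymal cells that lie between muscle fibres. They make collagens, basement membrane components and growth factors for the fibres and muscle stem cells, and in damaged or dystrophic muscle they can turn into scar-forming fibroblasts or into adipocytes. Cavin1 encodes a protein that coats caveolae, small invaginations of the cell surface, and its loss in mice and people causes lipodystrophy together with muscle disease.

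The targeted gene came close to its detection limit in these nuclei. Cavin1 (ENSMUSG00000004044; GRCm38 chromosome 11, 100956733 to 100970887, minus strand) had 0 UMIs in knockout member nuclei, with an interval up to 5.84 UMIs per 1000000 member UMIs (CPM), and 2 UMIs or 17.5 CPM (2.12 to 63.1) in WT member nuclei. Both sums lie under the floor of 3 UMIs used here, so no fold is given. UMIs of a 3′ kit check a deletion only where it removes the counted end, which was not known here.

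The knockout library held 16052317 UMIs, 631506 of them in members, and the WT library 9746980 UMIs, 114423 of them in members. Nuclei are called adipocyte, lymphatic endothelial or mural below when they passed the marker list of that cell type, and of no class when they passed none, as 5950 knockout and 9893 WT nuclei did.

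Member nuclei made up 5.74% of the knockout library (5.24 to 6.28) and 1.12% of the WT library (0.925 to 1.34). The share was higher in the knockout library under every setting of the rule tried, and the 2 intervals did not overlap under any of them. The size of the gap moved with depth and with sex-linked transcripts. The median total was 995 UMIs in knockout members and 692 in WT members, and 1667 UMIs in knockout and 699 in WT nuclei of no class. With nuclei thinned to 500 UMIs, which all 7766 knockout and 8219 of the WT nuclei held, the shares were 3.41% (3.02 to 3.84) in the knockout and 0.621% (0.462 to 0.815) in WT. Among nuclei with at least 500 genes they were 4.84% (4.34 to 5.38) in the knockout and 1.66% (1.26 to 2.13) in WT.

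The knockout library held nuclei with Xist, the RNA of the inactive X chromosome, and nuclei with Y-linked transcripts, whereas no WT member carried Xist. Of the 446 knockout members, 102 carried Xist alone, 91 Y-linked UMIs alone, 25 both and 228 neither. Of the 115 WT members, 32 carried Y-linked UMIs and 83 neither mark. Between Y-marked nuclei of both libraries the member share was 2.93% (2.37 to 3.59) in the knockout and 1.18% (0.806 to 1.66) in WT. Among Xist-marked knockout nuclei it was 6.68% (5.48 to 8.05), and among knockout nuclei with both marks 11.3% (7.46 to 16.2). Nuclei with neither mark, which held most members, had a member share of 7.82% (6.87 to 8.86) in the knockout and 1.10% (0.877 to 1.36) in WT. Members with neither mark had the lowest median totals, 816.5 UMIs in the knockout and 656 in WT, so the marks also follow depth. The 25 members with both marks had a median of 2273 UMIs, above that of either single mark, and no doublet caller was used.

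**Figure D1:**
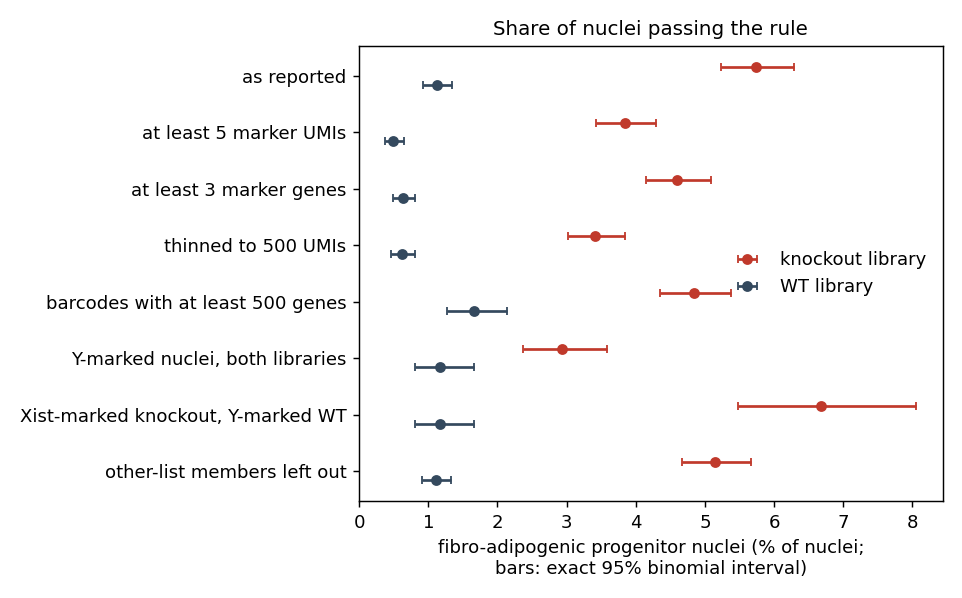
Share of nuclei that met the rule (x axis, percent of nuclei) under each setting (y axis), for the knockout library in red and the WT library in dark blue, with exact 95% binomial intervals. The knockout share lies above the WT share at each setting, most narrowly between Y-marked nuclei, at 2.93% and 1.18%.

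The rule sat in a continuous range of marker counts. The marker sum had a median of 6 UMIs and a highest value of 35 in knockout members, and a median of 4 and a highest value of 18 in WT members. Exactly 3 marker UMIs, the least the rule admits, were held by 77 knockout and 43 WT members. Just outside the rule lay 91 knockout and 75 WT nuclei with 2 marker UMIs from 2 genes, and 40 knockout and 26 WT nuclei with 3 or more from 1 gene. A larger part of the WT members was therefore near the threshold. The sum over the 8 excluded genes removed 36 knockout and 3 WT nuclei that had enough marker UMIs. The libraries shared 24 cell barcodes, of which 1 belonged to a knockout member and 0 to a WT member.

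The 4 marker genes behind the label, Pdgfra, Dcn, Fbn1 and Abca8a, are genes of the rule, so their levels only describe which nuclei were taken and do not check the label. Pdgfra, the receptor for platelet-derived growth factor, was at 274 CPM (235 to 318) in knockout members and 253 CPM (170 to 364) in WT members, against 1.55 CPM in knockout and 6.45 CPM in WT nuclei of no class. Abca8a, a lipid transporter of fibroblasts, was at 1324 CPM (1236 to 1417) in knockout members and 1285 CPM (1085 to 1510) in WT members. The intervals of these 2 markers overlapped between the libraries. Dcn, which encodes the collagen-binding proteoglycan decorin, was at 630 CPM (570 to 695) in the knockout and 367 CPM (265 to 496) in WT, a log2 ratio of 0.76 (0.32 to 1.27). Fbn1, which encodes fibrillin of the microfibrils, was at 1324 CPM (1236 to 1417) in the knockout and 2106 CPM (1849 to 2390) in WT, a log2 ratio of −0.67 (−0.88 to −0.46). After subtraction of the scaled profile of nuclei of no class, as set out with the ratios over all genes, Fbn1 was at −1.16, and with at least 3 marker genes per nucleus it was at −0.32. Membership itself depends on both genes and WT members lie nearer the threshold, so neither value is a result about the genotype. Of the other 6 marker genes, Col3a1, Col1a2, Col1a1, Mfap5, Dpt and Lum, none had an interval that excluded equality, and the ratio of Lum rests on 1 WT UMI.

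**Figure D2:**
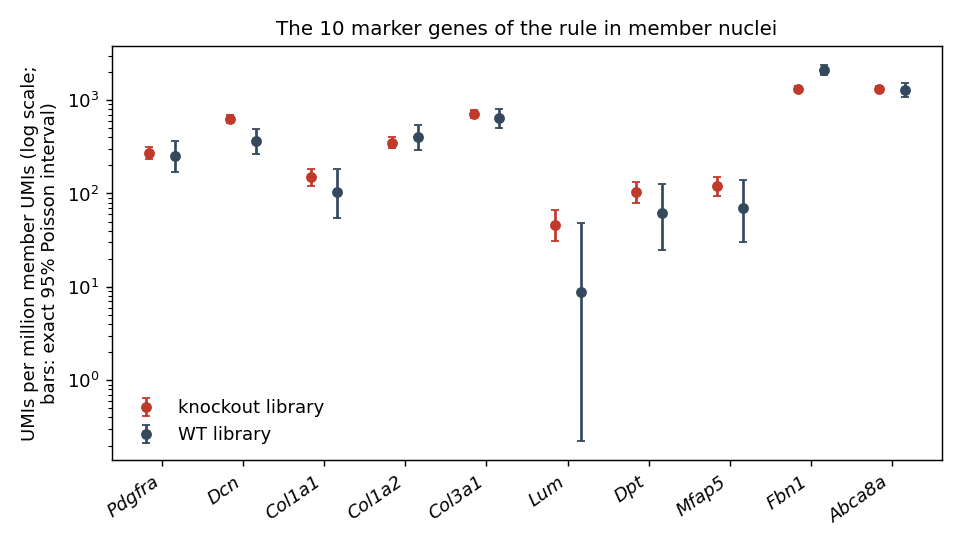
Level of the 10 marker genes of the rule (x axis) in member nuclei, in CPM on a log scale (y axis), with exact 95% Poisson intervals, knockout library in red and WT library in dark blue. Fbn1 is lower in the knockout library, at 1324 against 2106 CPM, and Dcn is higher, at 630 against 367 CPM.

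Genes outside the rule were ranked by their excess in members of both libraries, so that excess is how they were chosen and does not check the label. The 15 genes with the largest excess in members over nuclei of no class, counted in the library where the excess was smaller, were Gm33869, Cd34, Nova1, Abca6, Axl, Ifi205, Myoc, Ebf2, Adam33, Htra3, Dnm1, Gfpt2, Col6a2, Adgrd1 and Fndc1. Cd34, a sialomucin found on muscle-resident progenitors, was at 131 CPM (105 to 163) in knockout members and 157 CPM (93.2 to 249) in WT members, which is 79.2-fold its level in nuclei of no class in the knockout and 51.0-fold in WT. Ebf2, a transcription factor of mesenchymal and adipocyte precursors, was at 1405 CPM (1314 to 1500) in knockout members and 1931 CPM (1685 to 2204) in WT members. Ebf2 was the only one of the 15 with an interval that excluded equality, at a log2 ratio of −0.46 (−0.67 to −0.24), and its ratio was 0.05 for Xist-marked knockout members set against Y-marked WT members. Nova1, an RNA-binding splicing factor, was at 738 CPM (672 to 808) in the knockout and 664 CPM (523 to 831) in WT, but Gm33869, which heads this set, lies within Nova1 on the same strand, so their UMIs may not be separable.

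Transcripts of muscle and of other cells were also present, and their amount differed between the libraries. The 10 pan-myonuclear genes, among them Ttn and Neb, summed to 21585 CPM (21224 to 21950) in knockout members and 49125 CPM (47849 to 50426) in WT members, which was 32.3% of their level in nuclei of no class in the knockout and 51.8% in WT. The 7 adipocyte genes summed to 378 CPM (332 to 430) in knockout members and 69.9 CPM (30.2 to 138) in WT members, with Adipoq, Plin1, Acvr1c and Cidec at 0 in WT and none at 0 in the knockout. Neither sum was level between the libraries, and their part in the results was not tested. The 6 macrophage genes were at 58.6 CPM (41.3 to 80.8) in knockout members and 69.9 CPM (30.2 to 138) in WT members. The 5 lymphatic endothelial genes were at 139 CPM (112 to 172) in knockout members and 78.7 CPM (36.0 to 149) in WT members, where Mmrn1 and Prox1 were at 0. The 6 mural genes were at 290 CPM (249 to 335) in knockout members and 236 CPM (156 to 343) in WT members, where Kcnj8 and Cspg4 were at 0. The intervals of these 3 lists overlapped between the libraries. Against nuclei of no class, adipocyte genes were at 429% in knockout and 42.4% in WT members, and macrophage genes at 328% and 142%. Lymphatic endothelial genes were at 1310% and 224% and mural genes at 79.2% and 85.5%. Blood endothelial genes were at 510% and 124% and tenocyte genes at 1338% and 307%. Nuclei of no class were defined by failing these lists, which lowers their levels. The rule for members also excluded nuclei on adipocyte, macrophage and endothelial genes, among them Adipoq, Plin1 and Acvr1c of the adipocyte list and Cdh5 of the blood endothelial list. That step removed 36 knockout and 3 WT nuclei. The sums and percentages of the adipocyte, macrophage and blood endothelial lists in members are therefore limited by how members were chosen. Of the knockout members, 46 also passed the marker list of another cell type, as did 1 WT member.

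Because the muscle share differs, list medians, and log2 ratios of named genes where the 2-fold call changes, are also given after subtraction. For this the profile of nuclei of no class was scaled to the pan-myonuclear level of the members and taken away from each library. Sums that fell below 0 were set to 0, and no interval was computed after subtraction. Genes with few UMIs can move far in either direction. Plin4, with 5 WT UMIs, went from 0.58 to 3.24, and Nr4a3, with 1 WT UMI, from 1.24 to −4.23. Over the 2891 genes with at least 50 UMIs in members, the median log2 ratio of knockout over WT was 0.27 as counted and 0.15 after subtraction, so the scale itself lies above 0. Of these genes, 399 or 13.8% were past 2-fold higher in the knockout, a log2 ratio of at least 1, and 90 or 3.11% were past 2-fold lower. After subtraction 625 (21.6%) were higher and 313 (10.8%) lower. Centred instead on 451 genes that were at least 4-fold enriched in members of both libraries, 199 were higher and 221 lower, so the balance of the directions depends on the scale. The 451 enriched genes had a median of 0.33 as counted and −0.11 after subtraction, with 69 higher and 5 lower as counted and 24 higher and 34 lower after subtraction.

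The basement membrane genes had a higher median ratio than all genes, with members on both sides of equality. Of 11 listed genes, 10 had at least 20 UMIs, and 3 of them, Col4a1, Col4a2 and Smoc2, were past 2-fold higher and 0 lower. Among all 5454 genes with at least 20 UMIs, 16.1% were past 2-fold higher and 5.78% lower. The intervals of 7 of the 10 lay above 0 and of none below, against 13% and 5.56% of all genes, and the list's median log2 ratio was 0.73, against 0.20 for all of them. After subtraction the list's median was 0.35, with 2 genes past 2-fold higher and 1, Nid2, lower, where 23.1% of all genes were higher and 16% lower, so the counts after subtraction lie near those of all genes. Many of the listed genes have more UMIs and so narrower intervals than a gene at the limit of 20 UMIs, and of the 905 genes that met the enrichment limit of the ranking given further on, 269 had an interval above 0. The raised median was not particular to this list. A list of 12 nuclear fibroblast genes had a median of 0.75, or 0.31 after subtraction, with 6 intervals above 0 and 1 below.

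Col4a1 and Col4a2 encode the chains of the collagen IV trimer that forms the sheet of basement membranes. Col4a1 (chromosome 8, 11198423 to 11312826, minus strand) was at 823 CPM (754 to 897) in knockout members and 280 CPM (191 to 395) in WT members, a log2 ratio of 1.54 (1.04 to 2.12), or 1.09 after subtraction. Col4a2 (chromosome 8, 11312805 to 11449287, plus strand) was at 391 CPM (344 to 443) in the knockout and 157 CPM (93.2 to 249) in WT, a log2 ratio of 1.28 (0.62 to 2.09), or 0.84 after subtraction. Both were also higher between Y-marked members, Col4a1 at 727 CPM in the knockout and 278 CPM in WT, and Col4a2 at 370 CPM in the knockout and 79.3 CPM in WT, from 4 WT UMIs. In nuclei of no class, Col4a1 was at 18.1 CPM in the knockout and 20.1 CPM in WT and Col4a2 at 38.1 CPM in the knockout and 21.4 CPM in WT. Col4a1 therefore differed in members and hardly at all in nuclei of no class. Col4a1 overlaps 1 other annotated gene on its own strand.

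The pair is read outwards in opposite directions from 1 shared region, and the promoter windows are printed because both genes had higher levels in knockout members. The annotated starts lie 21 bases apart with overlapping 5′ ends, and the windows share 78 bases. The sequences are RefSeq promoters of GRCm38.p6, from 250 bases before the start to 50 bases after the start, at chr8:11312777-11313076 on the minus strand for Col4a1 and chr8:11312555-11312854 on the plus strand for Col4a2. Capitals mark CCAAT and GGGCGG on either strand, so that ATTGG and CCGCCC are marked too.
Col4a1: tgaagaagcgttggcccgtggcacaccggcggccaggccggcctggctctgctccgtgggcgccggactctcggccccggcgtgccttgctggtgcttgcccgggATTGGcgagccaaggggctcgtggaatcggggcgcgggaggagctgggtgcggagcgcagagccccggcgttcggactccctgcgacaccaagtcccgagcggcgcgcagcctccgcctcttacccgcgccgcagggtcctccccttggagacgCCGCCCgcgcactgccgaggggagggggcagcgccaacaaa
Col4a2: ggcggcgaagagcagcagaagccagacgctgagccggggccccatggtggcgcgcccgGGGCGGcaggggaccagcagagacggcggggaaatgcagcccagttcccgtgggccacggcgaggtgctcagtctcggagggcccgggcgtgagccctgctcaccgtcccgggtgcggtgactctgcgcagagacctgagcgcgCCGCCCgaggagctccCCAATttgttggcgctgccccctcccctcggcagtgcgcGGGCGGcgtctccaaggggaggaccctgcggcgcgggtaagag
Each window holds 1 match to CCAAT, and the Col4a1 window holds 1 and the Col4a2 window 3 matches to GGGCGG. The GGGCGG match of the Col4a1 window lies in the shared bases. It is the same site as the last of the 3 in the Col4a2 window, read on the other strand. Matches to CCAAT occur in 37.4% and to GGGCGG in 35.6% of 32817 promoters of this length, so neither is a rare feature, and a match shows no binding.

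The other basement membrane genes ranged from above to below equality. Smoc2, a matricellular protein of basement membranes, was at 806 CPM (738 to 879) in knockout members and 297 CPM (206 to 415) in WT members, a log2 ratio of 1.42 (0.94 to 1.99), or 1.22 after subtraction. Lama2, the laminin chain that tethers muscle fibres to their basement membrane, was at 2290 CPM (2173 to 2411) in knockout members and 1162 CPM (973 to 1378) in WT members, a log2 ratio of 0.97 (0.72 to 1.25), or 0.43 after subtraction. Lama2 was also higher in nuclei of no class, at 848 CPM in the knockout and 189 CPM in WT, so its level in members moves with theirs, whose part was not tested. The laminin genes Lamc1 and Lama4 were at log2 ratios of 0.69 each and the perlecan gene Hspg2 at 0.77, all with intervals above 0. The nidogen genes Nid1 and Nid2 and the laminin gene Lamb1 had log2 ratios of −0.10, −0.63 and −0.04, with intervals across 0, and Nid2 was at −1.09 after subtraction.

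Collagen genes outside the rule and the basement membrane list lay mostly above 0 as counted, 3 of 3 fibrillar and 10 of 11 others. All genes with at least 20 UMIs had a median of 0.20, so most genes lay above 0 too. After subtraction these collagen genes lay about evenly on both sides, with 1 of 3 and 6 of 11 above 0. Of 3 measured fibrillar collagen genes outside the rule, Col5a2 was past 2-fold higher, at 743 CPM (677 to 813) in knockout members and 332 CPM (235 to 456) in WT members, a log2 ratio of 1.14 (0.68 to 1.68), or 0.69 after subtraction. The list's median was 0.37 as counted and −0.07 after subtraction. Among 11 other collagen genes, 1 was past 2-fold higher and 1 lower, against 16.1% and 5.78% of all genes. The lower one was Col27a1, from 17 knockout and 8 WT UMIs. The median of the 11 was 0.38, or 0.03 after subtraction. Col6a3, a chain of the microfibrillar collagen VI, was the higher one, at 559 CPM (502 to 620) in the knockout and 210 CPM (134 to 312) in WT. Its partner chains Col6a1 and Col6a2 had log2 ratios of 0.15 and 0.74 with intervals across 0, against 1.39 (0.82 to 2.08) for Col6a3, which was at 0.94 after subtraction. Each of Col5a2 and Col6a3 lies across a further same-strand gene model, so some of their UMIs could belong to it.

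Enzymes that finish collagen fibres included the most extreme ratio of the matrix genes. Plod2, the lysyl hydroxylase of collagen telopeptides, was at 152 CPM (123 to 186) in knockout members and 8.74 CPM (0.221 to 48.7) in WT members, from 96 knockout UMIs and 1 WT UMI, a ratio with an interval from 3.05-fold to 694-fold. The 96 UMIs were spread over 67 of the 446 knockout members, with at most 5 in 1 nucleus. Loxl3, a lysyl oxidase that cross-links collagen and elastin, had 38 knockout UMIs and 1 WT UMI, a log2 ratio of 2.22 (0.22 to 8.12). Pcolce2, an enhancer of procollagen trimming, went the other way, at 72.8 CPM (53.3 to 97.2) in the knockout and 149 CPM (86.5 to 238) in WT, a log2 ratio of −1.05 (−1.86 to −0.13). Over the 9 measured genes of collagen processing, 3 were past 2-fold higher and 1 lower, against 16.1% and 5.78% of all genes. The list's median was 0.38, or −0.06 after subtraction.

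Of the elastic fibre and microfibril genes, 2 of 7 were past 2-fold higher, namely Ltbp4, a binder of latent TGF-β, with a log2 ratio of 1.41 (0.25 to 3.20), and Fbln2, which encodes a fibulin, with 1.04 (0.08 to 2.37), or 0.59 after subtraction. The median was 0.33, or −0.12 after subtraction. Among 9 measured genes of TGF-β signalling and fibroblast activation, 2 were past 2-fold higher and 0 lower, where 16.1% and 5.78% of all genes were, with a median of 0.18, or −0.24 after subtraction. Fap, the fibroblast activation protein, was at 738 CPM (672 to 808) in knockout members and 297 CPM (206 to 415) in WT members, a log2 ratio of 1.29 (0.81 to 1.86), or 0.82 after subtraction. Adam12, a metalloprotease of injured muscle and of adipogenic stroma, was at 162 CPM (132 to 196) in knockout members and 34.96 CPM (9.52 to 89.5) in WT members. Adam12 was also at 470 CPM in knockout adipocyte nuclei, and within the knockout library it was at 323 CPM in Xist-marked and 71.4 CPM in Y-marked members. Of the receptor genes, Tgfbr1 had a log2 ratio of 0.89 (0.05 to 1.99), or 1.59 after subtraction, whereas Tgfbr2 and Tgfbr3 and the signal transducer gene Smad3 had log2 ratios between −0.05 and 0.11, with intervals across 0.

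**Figure D3:**
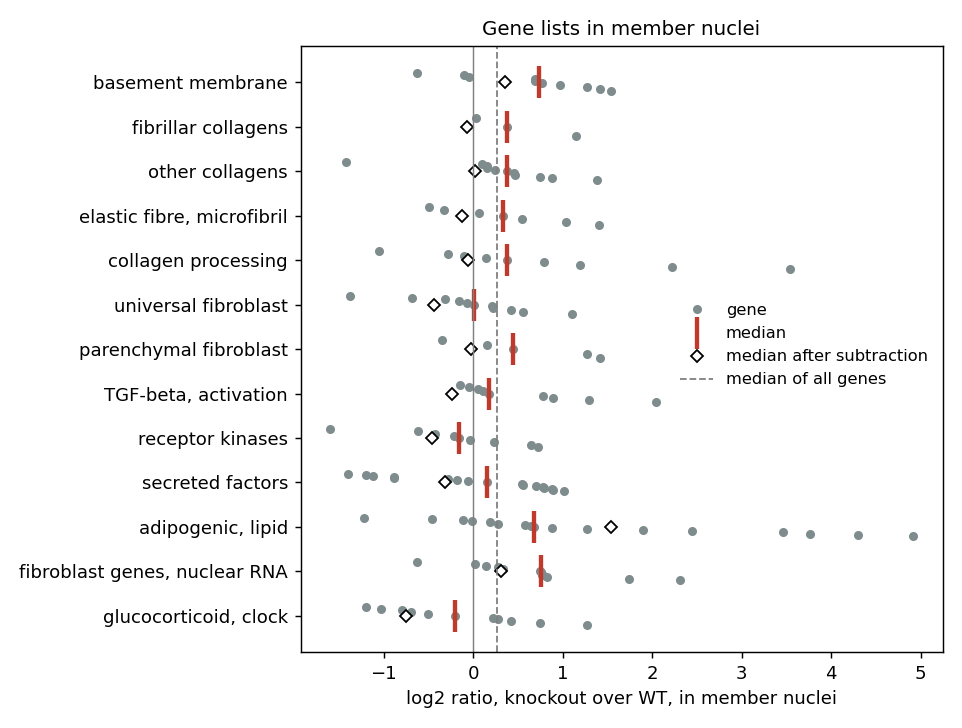
Log2 ratio of knockout over WT in member nuclei (x axis) for each gene with at least 20 UMIs in 13 gene lists (y axis), with the list's median as a red bar and its median after subtraction of the no-class profile as a diamond. The dashed line is the median of all genes with at least 50 UMIs, 0.27. Nuclear fibroblast genes have a median of 0.75, basement membrane genes of 0.73 and receptor kinases of −0.16.

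Among receptor tyrosine kinases, 0 of 9 were past 2-fold higher and 1 lower, against 16.1% and 5.78% of all genes. The list's median was −0.16, or −0.46 after subtraction. Egfr, the receptor for epidermal growth factor, was at 2152 CPM (2039 to 2270) in knockout members and 1302 CPM (1101 to 1529) in WT members, a log2 ratio of 0.72 (0.48 to 0.98), or 0.25 after subtraction. Fgfr2, a receptor for fibroblast growth factors, was at 101 CPM (78.0 to 129) in knockout members and 306 CPM (213 to 425) in WT members, a log2 ratio of −1.60 (−2.21 to −0.96). It was at 159 CPM in the knockout and 241 CPM in WT in nuclei of no class, above its level in knockout members and below that in WT members, and other annotated genes overlap it. Igf1r, a receptor for insulin-like growth factor, had a log2 ratio of 0.65 (0.28 to 1.06), and Pdgfrb, Ddr2, Fgfr1, Tek, Met and Insr had intervals across 0, with Tek at −0.61, or −1.07 after subtraction.

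Of 17 measured genes of secreted factors, 1 was past 2-fold higher and 3 lower, against 16.1% and 5.78% of all genes. The list's median was 0.15, or −0.32 after subtraction. Angpt1, which stabilises vessels, was at 450 CPM (399 to 505) in knockout members and 218 CPM (141 to 323) in WT members, a log2 ratio of 1.02 (0.45 to 1.69), with 297 CPM in knockout and 198 CPM in WT nuclei of no class. Fstl1, a follistatin-like secreted protein, was at 442 CPM (391 to 497) in the knockout and 236 CPM (156 to 343) in WT, and was at 8.77 CPM in knockout and 14.5 CPM in WT nuclei of no class. Bmp5, a bone morphogenetic protein, was at 234 CPM (198 to 275) in the knockout and 122 CPM (66.9 to 205) in WT. Bmp5 was at 2.95 CPM in knockout and 9.03 CPM in WT nuclei of no class, so Fstl1 and Bmp5 stood far above those nuclei and Angpt1 did not. Vegfa, the vascular growth factor, was at 169 CPM (139 to 205) in the knockout and 446 CPM (332 to 586) in WT, but at 384 CPM in knockout and 527 CPM in WT nuclei of no class, so that members lay below them in both libraries. Pdgfc and Il33 were the other 2 past 2-fold lower, Pdgfc from 20 knockout and 8 WT UMIs and Il33 from 16 knockout and 6 WT UMIs, with intervals across 0. Fgf7, Fgf10, Igf1 and Gas6 had log2 ratios between 0.55 and 0.79 with intervals across 0.

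Lipid and adipocyte genes held the widest spread. Of 17 measured genes on the adipogenic list, 7 were past 2-fold higher and 1 lower, against 16.1% and 5.78% of all genes. The list's median was 0.68, or 1.54 after subtraction, where all genes with at least 20 UMIs had 0.20 as counted. The ratios of Fabp4, Lepr, Cidec and Scd1 rest on the 0.5 UMIs added, since WT members held 0 UMIs of each. Fabp4, the fatty acid carrier of adipocytes and capillary endothelium, had 83 UMIs in knockout members, or 131 CPM (105 to 163), and 0 in WT members. With WT set to the floor of 3 UMIs over the library it was 5.01-fold higher. The interval of its log2 ratio starts at 2.00, which is a smaller fold. Acaca, the acetyl-CoA carboxylase that starts fatty acid synthesis, was at 453 CPM (402 to 509) in knockout members and 78.7 CPM (36.0 to 149) in WT members, a log2 ratio of 2.45 (1.58 to 3.67). Both are genes of the adipocytes in the same library, at 1762 CPM for Fabp4 and 4915 CPM for Acaca in knockout adipocyte nuclei. Lepr, the leptin receptor, was not: it was at 85.5 CPM (64.2 to 112) in knockout members, with 54 UMIs, and at 5.78 CPM in knockout adipocyte nuclei and 1.55 CPM in knockout nuclei of no class. It had 0 UMIs in WT members, 3.26-fold higher in the knockout with WT at the floor, and the interval of its log2 ratio starts at 1.36. The Lepr UMIs lay in 27 knockout members with 14 in 1 of them.

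The amount of adipocyte RNA moved with these genes, and some ratios moved when members holding it were left out. In the 362 knockout and 107 WT members with no UMI of the adipocyte list, the log2 ratio of Acaca was 1.46 and that of Fabp4 3.36, while that of Lepr was 4.34. Between Y-marked members the log2 ratio of Acaca was 0.47. Cidec and Scd1, a lipid droplet protein and a fatty acid desaturase, had 37 and 30 knockout UMIs and 0 WT UMIs each, and were at 1182 and 651 CPM in knockout adipocyte nuclei. Among the transcription factors of adipocyte precursors, Ebf1 was at 5344 CPM (5166 to 5528) in knockout members and 2893 CPM (2589 to 3222) in WT members, a log2 ratio of 0.88 (0.72 to 1.05), or 0.42 after subtraction, whereas Ebf2 was lower, as given above. Zfp423, Zfp521 and Ebf3 had log2 ratios between −0.11 and 0.19 with intervals across 0. Cd36, the fatty acid translocase, had a log2 ratio of −1.22 (−1.68 to −0.73), but 24 of its 55 WT UMIs lay in 1 nucleus, and the ratio was −0.49 without that nucleus.

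Among 4 measured caveola genes other than Cavin1, 1 was past 2-fold higher and 0 lower, against 16.1% and 5.78% of all genes. The list's median was 0.24, or 0.55 after subtraction. Cav1, the caveolin that builds the caveola with Cavin1, was at 141 CPM (113 to 173) in knockout members and 17.5 CPM (2.12 to 63.1) in WT members, from 89 knockout and 2 WT UMIs, a log2 ratio of 2.70 (1.12 to 6.08). It was also at 801 CPM in knockout adipocyte nuclei, and at 223 CPM in Xist-marked and 90.9 CPM in Y-marked knockout members. Ehd2, an ATPase of the caveola neck, had a log2 ratio of 0.49 (−0.63 to 2.11).

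The remaining lists were mixed, and each is given as its genes with at least 20 UMIs. Of 12 nuclear fibroblast genes, 2 were past 2-fold higher and 0 lower, with a median of 0.75, or 0.31 after subtraction. Svep1, a large adhesion protein of the extracellular matrix, was one of them, at 483 CPM (430 to 540) in knockout members and 140 CPM (79.9 to 227) in WT members, but was at 780 CPM in knockout adipocyte nuclei. Scara5, a ferritin receptor of fibroblasts, was at 291 CPM (251 to 337) in the knockout and 446 CPM (332 to 586) in WT, a log2 ratio of −0.62 (−1.07 to −0.14), or −1.09 after subtraction. Among 4 proteoglycan genes 1 was past 2-fold higher, among 9 proteases and inhibitors 0, among 8 hedgehog pathway genes 1, among 10 fibroblast transcription factors 1, among 5 complement genes 1 and among 5 parenchymal fibroblast genes 2, and none of these lists had a gene past 2-fold lower. The 2 parenchymal genes, Lpl and Smoc2, were already counted in the adipogenic and basement membrane lists, since lists can share genes. With 16.1% of all genes past 2-fold higher and 5.78% lower, such counts say nothing particular about these lists. The 3 measured Wnt pathway genes and the 4 Abca transporter genes had 0 in either direction. Of 11 glucocorticoid and clock genes, 1 was past 2-fold higher and 2 lower, with a median of −0.21, or −0.75 after subtraction. Zbtb16, a glucocorticoid-induced zinc finger factor, was at 1477 CPM (1384 to 1575) in the knockout and 3391 CPM (3062 to 3746) in WT, with 1289 CPM in knockout and 3514 CPM in WT nuclei of no class, where it differed likewise. Of 4 immediate early genes, 2 were past 2-fold higher with intervals across 0, and their median of 0.80 became −0.98 after subtraction.

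Across all genes, the highest ratios were ranked by the lower end of the interval, among genes at least 2-fold above nuclei of no class. The 12 were Fabp4, Ldb2, Mylk, Plod2, Acaca, Frmd6, Pcdh7, Lepr, Wwtr1, Ntrk2, Myh9 and Bnc2. Frmd6, an upstream element of the Hippo pathway, was at 728 CPM (663 to 798) in knockout members and 157 CPM (93.2 to 249) in WT members, a log2 ratio of 2.17 (1.53 to 2.98), and had UMIs in 48.2% of knockout and 12.2% of WT members. Wwtr1, the Hippo coactivator TAZ, was at 287 CPM (246 to 332) in the knockout and 52.4 CPM (19.2 to 114) in WT, from 181 knockout and 6 WT UMIs, and was at 91.6 CPM in knockout and 58.6 CPM in WT nuclei of no class and at 657 CPM in knockout lymphatic endothelial nuclei. Bnc2, a zinc finger protein of fibroblasts, was at 1196 CPM (1112 to 1284) in the knockout and 385 CPM (279 to 516) in WT, a log2 ratio of 1.62 (1.20 to 2.11). Bnc2 had UMIs in 63.2% of knockout and 25.2% of WT members, although 64 of its 755 knockout UMIs lay in 1 nucleus, and it was at 980 CPM in knockout adipocyte nuclei. All 12 lay above 0 under every setting tried, which their ranking by the lower end of the interval favours. The lowest value was 1.42 for Frmd6, 0.80 for Bnc2 and 0.47 for Acaca.

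Ldb2, a cofactor of LIM-domain transcription factors, was at 494 CPM (441 to 552) in knockout members and 78.7 CPM (36.0 to 149) in WT members. It was also at 1581 CPM in knockout lymphatic endothelial nuclei, whose own markers Mmrn1 and Prox1 were at 0 in WT members but not in knockout members, and several annotated genes overlap it on its own strand. Mylk, a kinase of smooth muscle and motile cells, had 64 UMIs over 32 knockout members and 0 in WT members. With WT at the floor it was 3.87-fold higher, and the interval of its log2 ratio starts at 1.61. Ntrk2, a neurotrophin receptor, was at 154 CPM (125 to 187) in the knockout and 17.5 CPM (2.12 to 63.1) in WT, from 97 knockout and 2 WT UMIs. Myh9, the non-muscle myosin heavy chain, had 73 UMIs in knockout members and 1 in WT members, and was at 309 CPM in knockout mural nuclei. The mural list itself had overlapping intervals in the 2 libraries. Pcdh7, a protocadherin, was at 1495 CPM (1401 to 1593) in the knockout and 428 CPM (317 to 566) in WT, but was also higher in nuclei of no class, at 578 CPM in the knockout and 90.8 CPM in WT, and other annotated genes overlap it on its own strand.

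The 12 genes ranked lowest by the upper end of the interval were Ccdc85a, Cmah, Anks1b, Sdk1, Sntg1, Ahnak, Htr1f, Tenm2, Smpd3, Creb5, Unk and Nav3. Sdk1, a cell adhesion protein of the immunoglobulin superfamily, was at 686 CPM (623 to 753) in knockout members and 1599 CPM (1376 to 1849) in WT members, a log2 ratio of −1.22 (−1.47 to −0.96), or −0.78 without the WT nucleus that held 50 of its 183 WT UMIs. Creb5, a leucine zipper transcription factor, was at 812 CPM (744 to 886) in the knockout and 1328 CPM (1126 to 1557) in WT, a log2 ratio of −0.71 (−0.97 to −0.44), or −1.19 after subtraction. Nav3, a neuron navigator protein, was at −0.72 (−1.13 to −0.27), or −1.20 after subtraction. Ahnak, a giant scaffold protein at the plasma membrane, was at 394 CPM (347 to 446) in the knockout and 813 CPM (656 to 996) in WT, a log2 ratio of −1.05 (−1.39 to −0.68). Sdk1, Creb5 and Ahnak had UMIs in 34.8%, 41.5% and 37.7% of knockout members and in 52.2%, 47.0% and 47.0% of WT members. Cmah, the hydroxylase that makes N-glycolylneuraminic acid, had 28 UMIs or 44.3 CPM (29.5 to 64.1) in the knockout and 22 UMIs or 192 CPM (120 to 291) in WT. Smpd3, a neutral sphingomyelinase, was at 71.3 CPM (52.0 to 95.3) in the knockout and 175 CPM (107 to 270) in WT.

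For 3 of the lowest genes the nuclei of no class had the same direction to a larger degree. Their log2 ratio was −2.74 for Anks1b, −3.74 for Sntg1 and −3.05 for Tenm2, against −2.02, −1.80 and −1.48 in members. Ccdc85a had the lowest ratio of the 12, −2.58, from 34 knockout and 37 WT UMIs, but 31 of the WT UMIs lay in 1 nucleus and the ratio was −0.15 without it. Tenm2 had a log2 ratio of 0.67 for Xist-marked knockout members over Y-marked WT members, from 29 knockout and 5 WT UMIs.

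**Figure D4:**
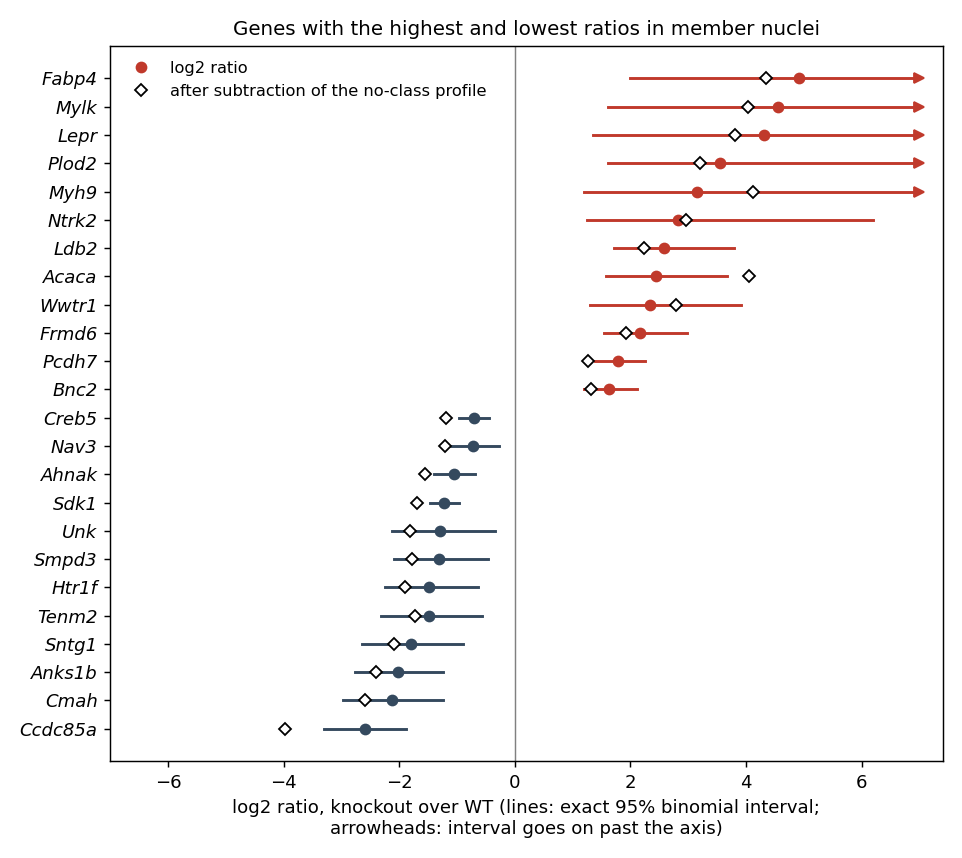
Log2 ratio of knockout over WT in member nuclei (x axis) for the 12 genes ranked highest and the 12 ranked lowest (y axis), with exact 95% intervals as lines and the value after subtraction of the no-class profile as diamonds. The side of 0 as counted follows from the ranking; the diamonds show how far subtraction moves each gene, as for Acaca, from 2.45 as counted to 4.06.

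Fibroblasts of many mouse tissues include a Pi16- and Dpp4-expressing state near vessels and fascia and a Col15a1-expressing state within the tissue, and transcripts of both were seen among the members. A UMI of Pi16 or Dpp4 without Col15a1 or Smoc2 was found in 56 of 446 knockout members, 12.6% (9.63 to 16.0), and in 21 of 115 WT members, 18.3% (11.7 to 26.5). A UMI of Col15a1 or Smoc2 without Pi16 or Dpp4 was found in 212 knockout members, 47.5% (42.8 to 52.3), and in 32 WT members, 27.8% (19.9 to 37.0). Both kinds were found together in 35 knockout members and 1 WT member. The intervals of the Pi16 or Dpp4 share overlapped and those of the Col15a1 or Smoc2 share did not. After thinning to 500 UMIs the Pi16 or Dpp4 shares were 10.9% (7.45 to 15.3) in the knockout and 19.6% (9.82 to 33.1) in WT, and the Col15a1 or Smoc2 shares 32.8% (27.2 to 38.8) in the knockout and 19.6% (9.82 to 33.1) in WT. At this depth the intervals of both shares overlapped. Nuclei of no class carried a UMI of Pi16 or Dpp4 in 1.29% of the knockout and 1.24% of WT, and a UMI of Col15a1 or Smoc2 in 12.1% of the knockout and 9.40% of WT, at median depths of 1667 UMIs in the knockout and 699 in WT. Since Smoc2 itself was higher in knockout members, its share of nuclei is no separate result.

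Across 441 enriched genes, the landmark subsets were compared within each library. In the knockout library 94 genes (21.3%) had an interval above 0 for Pi16 or Dpp4 nuclei over Col15a1 or Smoc2 nuclei and 70 (15.9%) below 0, and in the WT library 34 (7.71%) and 44 (9.98%). The 10 leading genes on each side were ranked in the knockout library alone, after its values were seen, and read in WT. On the Pi16 or Dpp4 side they were Opcml, Ppp2r2b, Fn1, Creb5, Gfpt2, Galnt16, Ptprj, Smpd3, Anxa3 and Pcsk6, and all 10 were also higher there in WT, 6 of them with an interval above 0. On the Col15a1 or Smoc2 side they were Grm8, Lrrtm3, Sema5a, Bmp5, Gfra1, Col4a2, Hmgcll1, Pappa, Pde11a and Gpm6b, and all 10 lay on that side in WT, 6 of them with the interval. Some sides in WT rest on very few UMIs. In Pi16 or Dpp4 and in Col15a1 or Smoc2 nuclei, Hmgcll1 had 0 and 4 and Pde11a 0 and 3. Col4a2 had 1 and 5 there, and Ppp2r2b 5 and 1. Of all compared genes, 131 of 234 (56.0%) above 0 in the knockout and 160 of 207 (77.3%) below 0 had the same side in WT.

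Opcml, a cell adhesion molecule, was at 1547 CPM in Pi16 or Dpp4 nuclei and 132 CPM in Col15a1 or Smoc2 nuclei of the knockout library, and at 961 and 83.8 CPM in those of WT. Creb5 was at 2294 and 395 CPM in the knockout and 2632 and 363 CPM in WT, and so tracked the Pi16 or Dpp4 subset at a like size in both. Grm8, a glutamate receptor gene, was at 12.9 and 398 CPM in the knockout and 41.8 and 671 CPM in WT. Bmp5, like Grm8 from 1 UMI in the Pi16 or Dpp4 nuclei of each library, was at 12.9 and 279 CPM in the knockout and 41.8 and 307 CPM in WT. Each of these 4 genes kept its side in both libraries, whatever its overall ratio. Fbn1, not ranked because the rule used it, was at 2539 and 827 CPM in the knockout and 2548 and 1229 CPM in WT. Col4a1 was at 309 and 1066 CPM in the knockout and 125 and 363 CPM in WT, and its intervals did not overlap between the libraries in the Col15a1 or Smoc2 subset but did in the Pi16 or Dpp4 subset, which held 3 WT UMIs. Fbn1 was nearly equal between the libraries in the Pi16 or Dpp4 subset, but in nuclei with none of the 4 landmark genes it was at 1372 CPM (1202 to 1558) in the knockout and 2535 CPM (2121 to 3006) in WT.

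**Figure D5:**
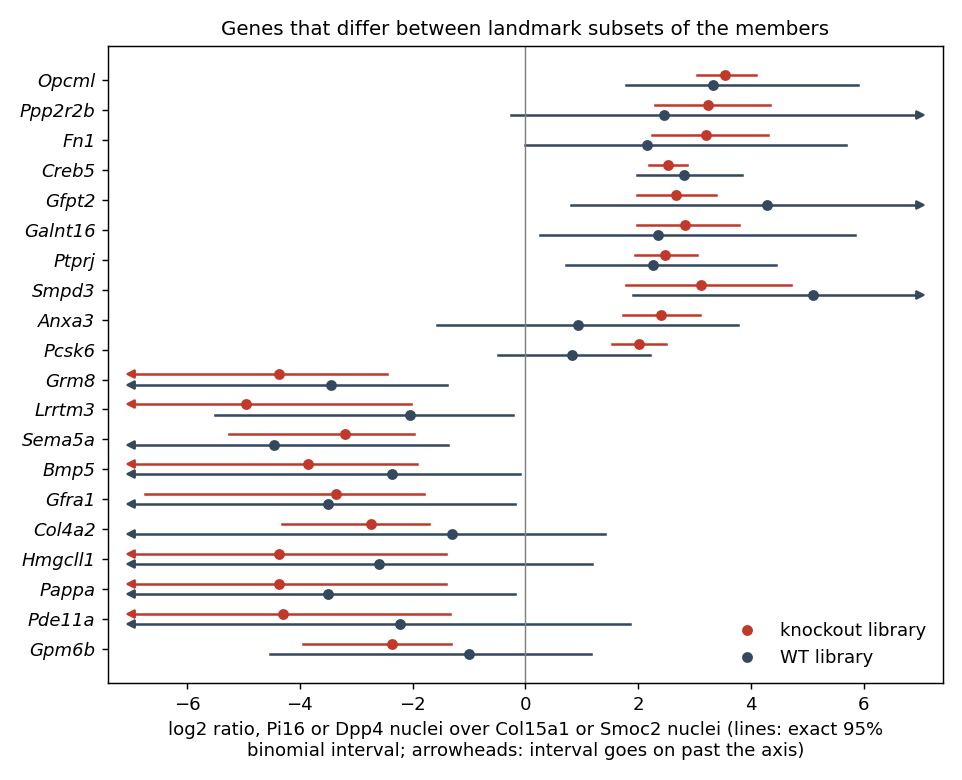
Log2 ratio of Pi16 or Dpp4 nuclei over Col15a1 or Smoc2 nuclei among the members (x axis) for the 10 leading genes of each side (y axis), in the knockout library in red and the WT library in dark blue, with exact 95% intervals. All 20 genes lie on the same side in both libraries, and 6 of each 10 have a WT interval that excludes 0.

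The leading genes of each side were also read for their ratio between the libraries, as a description. The 10 leading genes of the Pi16 or Dpp4 side had a median log2 ratio of knockout over WT of −0.18, or −0.60 after subtraction, and 7 of them were below 0. The 10 of the Col15a1 or Smoc2 side had a median of 0.49, or 0.06 after subtraction, and 4 were below 0. Centred on the 451 enriched genes, whose own median was 0.33, the medians were −0.51 for the Pi16 or Dpp4 side and 0.16 for the Col15a1 or Smoc2 side. Both sets were ranked on knockout counts, and the part of this grouping in the difference between libraries was not tested. Of 11 measured genes on a list of universal fibroblast genes, which holds Pi16 and Dpp4, 1 was past 2-fold higher and 1 lower. Of all genes, 16.1% were higher and 5.78% lower. The list's median was 0.01. After subtraction 0 were higher and 2, Efhd1 and Pi16, lower, where 23.1% of all genes were higher and 16% lower. The list's median was then −0.44. Efhd1, a calcium-binding mitochondrial protein, was the lower one, at 41.2 CPM (26.9 to 60.3) in the knockout and 105 CPM (54.2 to 183) in WT. Pi16 was at 99.8 CPM (76.7 to 128) in the knockout and 157 CPM (93.2 to 249) in WT, and Dpp4 at 154 CPM (125 to 187) in the knockout and 149 CPM (86.5 to 238) in WT. As counted both had intervals across 0, and after subtraction the log2 ratio was −1.17 for Pi16 and −0.44 for Dpp4.

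Within the knockout library, Xist-marked and Y-marked members could be set against each other. Of 1373 genes with at least 50 UMIs in the 2 sets, 39 (2.84%) were past 2-fold higher and 30 (2.18%) past 2-fold lower in Xist-marked members. In the higher set, Acaca was at 722 CPM in Xist-marked and 175 CPM in Y-marked members, and Slc27a1, a fatty acid transporter, at 340 and 38.9 CPM, while they were at 4915 and 1398 CPM in knockout adipocyte nuclei. The adipocyte list summed to 757 CPM (632 to 900) in Xist-marked and 130 CPM (79.3 to 201) in Y-marked members, and to 39.7 CPM (4.80 to 143) in Y-marked WT members. The pan-myonuclear list ran the other way, at 18864 CPM in Xist-marked and 29055 CPM in Y-marked members. The lymphatic endothelial list was at 106 CPM (62.6 to 167) in Xist-marked and 240 CPM (169 to 331) in Y-marked members. The part of these lists in the ratios was not tested. The lower set held Fkbp5, a glucocorticoid-induced cochaperone, at 170 CPM in Xist-marked and 649 CPM in Y-marked members, Eln, the gene of elastin, at 117 and 273 CPM, and Grb10, an imprinted growth regulator, at 217 and 448 CPM. These 3 were at 48.9, 7.36 and 92.0 CPM in knockout adipocyte nuclei, but Marchf3, which ranked after Fkbp5 in the lower set, was at 590 CPM there, against 205 CPM in Xist-marked and 480 CPM in Y-marked members. Since the marks fall in 1 library, mice of different sex and different mice cannot be told apart.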

How the data were processed

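Single-nucleus RNA was measured in 2 libraries, 1 Cavin1 knockout and 1 WT. The deposited values are UMI counts per gene and barcode. Per the file headers they come from Cell Ranger 6.0.0. STAR and Seurat 4.1.1 appear in the submitters' processing notes, in no stated order. No source states a strand setting for the counts. Barcodes with fewer than 200 genes were left out, and doublets were left in. Members and gene lists were chosen with earlier results of these data known. Counts were summed per library over members, and the log2 ratio of knockout over WT, with 0.5 UMIs added to each sum, was given an exact conditional binomial interval. Levels have exact Poisson and shares exact Clopper-Pearson 95% intervals. Genes needed at least 50 UMIs, or 20 in lists, where genes of the rule were left out. Past 2-fold means a log2 ratio of at least 1 or at most −1. Named genes were the 15 most enriched, the 12 highest and 12 lowest by interval bound among genes at least 2-fold above nuclei of no class in the library where they were higher, and the list genes. The ranking left out genes of the rule, predicted gene models, Rn18s, Cavin1, sex-linked markers and genes of haemoglobin, ribosomal proteins or the mitochondrial genome. Genes of the landmark and Xist against Y comparisons were chosen after their values were seen. Of 53700 gene IDs, 52093 matched the GENCODE M21 annotation of GRCm38, and 81 symbols are shared by several IDs. Scripts, run in Python 3.11.15 with numpy 2.4.6, scipy 1.17.1, pandas 2.3.3 and matplotlib 3.10.9, were tested on simulated data.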

Additional observations from a re-analysis of the deposited data

How the results depend on the processing

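With 1 library per genotype no setting tests the genotype, and WT values rest on 115 nuclei. No paired analysis was possible because each genotype has 1 library. The difference in member share, 4.62 percentage points as reported, was 3.34 with at least 5 marker UMIs, 3.96 with at least 3 marker genes, 2.79 after thinning to 500 UMIs, 3.18 with at least 500 genes, 1.76 between Y-marked nuclei, 5.504 between Xist-marked knockout and Y-marked WT nuclei, 4.04 without members passing another marker list and 3.62 without members holding an adipocyte-list UMI, a setting chosen after seeing the data. Counts of genes past 2-fold, 399 higher and 90 lower as reported, were 101 and 27 after thinning, where 543 genes were tested, 116 and 39 between Y-marked nuclei, where 745 were tested, 625 and 313 after subtraction, 199 and 221 when centred on enriched genes, and 880 and 315 with at least 20 UMIs. Between Xist-marked knockout and Y-marked WT nuclei, 153 of 832 genes were higher and 61 lower. The median of all genes was 0.12 without muscle UMIs in the total and −0.06 when centred. The fibrillar collagen median was −0.070 after subtraction. Reversed values were 1.08 for Ccdc85a after thinning and 0.67 for Tenm2 between Xist-marked knockout and Y-marked WT nuclei. The cause was not tested.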
